A study of Mus musculus with 2 samples.

Results

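Cytosolic ribosomal protein genes encode the proteins of the large and small subunits of the ribosome. They were taken from the gene table by symbol: Rpl or Rps followed by a digit, plus Rpsa, Rplp0, Rplp1 and Rplp2, without pseudogene names ending in -ps and digits and without kinase symbols containing k. This gave 86 of 32285 listed genes, 52 with large subunit (Rpl) and 34 with small subunit (Rps) symbols, and 85 of them had at least 1 UMI (unique molecular identifier, 1 counted RNA molecule) in each library. The exception was Rpl10l, with 0 UMIs in both. The 86 symbols include 7 paralogs (Rpl3l, Rpl10l, Rpl22l1, Rpl36al, Rpl39l, Rps27l and Rps27rt) and 2 genes that are not core ribosomal proteins, Rps19bp1 and Rpl7l1. Rps27rt is a copy of Rps27 with the same coding sequence.

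The study sequenced single CD45+ cells (CD45 marks leukocytes) sorted from B16-F10 melanomas in WT mice. Mice of the Control group received vehicle. The DOPAC group was treated with DOPAC, the usual short name of 3,4-dihydroxyphenylacetic acid, into which cells break down dopamine. The design text counts 4 mice in each group, yet there is 1 matrix per group and no tag that would tell the mice apart, so every value below compares 1 library with 1 library and has no replicate check, no test and no p-value. The labels give the tissue as tumor, while their digestion protocol names colon. They give the cell type as lymphocyte, although monocytes, macrophages and dendritic cells were found below. B16-F10 is a melanoma cell line of the mouse strain C57BL/6, and the age and strain of the mice and the dosing were not given in the sources used here.

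Each ribosome joins a small subunit, which reads the messenger RNA, to a large subunit, which forms the peptide bond. Nearly every ribosomal protein is present once per ribosome and is encoded by 1 expressed gene, so their messenger RNAs are held at similar levels and take a large part of the messenger RNA of growing cells. Most of these RNAs start with a run of C and T bases, the 5′ terminal oligopyrimidine tract, through which mTOR and Larp1 control their translation and stability. Resting naive lymphocytes are known for a high proportion of ribosomal protein RNA, and neutrophils for a low one.

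Sequences are given to show the start tract known from these genes, where it was found, and how far the Rps27 paralogs can be told apart by reads. Several results turn on these paralogs. In the RefSeq promoter table (GRCm38.p6), 66 of the 86 members had an entry, and 24 of them (36.4%) held a run of at least 8 C or T bases on the gene's strand between 10 bases before and 20 bases after the annotated start. Among the other genes of the table that the files list, 2656 of 20201 (13.1%) held one. Where a gene had several annotated starts, the start with the longest run was taken, for members and other genes alike and for the lines below. A start annotated a few bases away would change these counts. The lines below run from 15 bases before to 20 bases after the start, with the longest C and T run found between 10 bases before and 20 after the start in capitals. Rpl35a, Rps10, Rpl28 and Rps27 hold long runs there, whereas Rps28 and Rps27l hold none of 8 bases between these limits. The run of Rps27l goes on upstream of them, where it is in lower case and not counted. All of that run lies before the annotated start.
Rpl35a (chr16:33056467-33056501, plus strand): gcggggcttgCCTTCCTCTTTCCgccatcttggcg
Rps10 (chr17:27635225-27635259, minus strand): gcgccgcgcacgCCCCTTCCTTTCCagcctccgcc
Rpl28 (chr7:4792950-4792984, plus strand): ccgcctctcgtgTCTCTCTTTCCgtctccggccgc
Rps27 (chr3:90213629-90213663, minus strand): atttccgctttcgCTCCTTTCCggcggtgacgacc
Rps28 (chr17:33824543-33824577, minus strand): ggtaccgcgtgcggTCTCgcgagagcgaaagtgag
Rps27l (chr9:66946071-66946105, plus strand): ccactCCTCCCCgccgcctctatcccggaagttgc

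Rps27 (gene at chr3:90212522-90213651, GRCm38, minus strand) and its paralog Rps27l (chr9:66946086-66949516, plus strand) have coding sequences of 252 bases each without the stop codon. They differ at 60 positions (76.2% identity), shown in capitals in both lines from the GENCODE M21 transcripts. Rps27rt (chr9:114982366-114982739) differs from Rps27 at 0 of these positions and is not printed.
Rps27 coding sequence: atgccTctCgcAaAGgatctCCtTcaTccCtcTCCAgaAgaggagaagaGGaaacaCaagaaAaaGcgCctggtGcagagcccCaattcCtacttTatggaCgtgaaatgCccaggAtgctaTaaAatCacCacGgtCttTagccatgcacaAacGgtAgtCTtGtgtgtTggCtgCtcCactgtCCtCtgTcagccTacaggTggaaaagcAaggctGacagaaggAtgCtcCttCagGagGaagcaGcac
Rps27l coding sequence: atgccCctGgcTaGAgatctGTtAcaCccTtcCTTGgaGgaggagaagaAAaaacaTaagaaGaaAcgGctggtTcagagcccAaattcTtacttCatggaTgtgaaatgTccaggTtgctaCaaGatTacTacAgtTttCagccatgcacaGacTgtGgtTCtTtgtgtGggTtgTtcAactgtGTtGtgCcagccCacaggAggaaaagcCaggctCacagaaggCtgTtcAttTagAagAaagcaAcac
Over whole transcripts, 98.6% of the 50-base words of Rps27 also occur in a transcript of another gene, with Rps27rt sharing the most, so the split of UMIs between Rps27 and Rps27rt is uncertain. The same count found 50 of 86 members with at least 50% of their 50-base words in another gene's transcript. For 8 members that gene was itself listed in the gene table. How reads matching several genes were counted was not given in the sources used here.

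After filtering, 8079 Control and 9280 DOPAC cells were kept, with 91180798 and 41563537 UMIs and medians of 9300 and 3595.5 UMIs per cell. The gap in depth therefore stands beside every difference between the libraries. The libraries shared 32 cell barcodes, 24 among kept cells. Cells were clustered without ribosomal protein genes and named from marker lists. T-lineage cells made up 21.9% of Control and 56.2% of DOPAC cells, and monocytes and macrophages 31.1% and 15.3%. Class names below all stand for "X-like" clusters.

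Ribosomal protein genes took 17.4% of all UMIs in Control and 21.9% in DOPAC, a difference of 4.51 percentage points. With the DOPAC share of each of the 24 clusters weighted by the UMIs that cluster had in Control, an alternative added after seeing the data, the DOPAC value was 17.3% and the difference -0.0754 points. With the Control shares weighted by the DOPAC UMIs per cluster, also added after seeing the data, the Control value was 19.9% and the difference 2.01 points. Both weightings gave a smaller difference, of unlike sign. Some clusters came mostly from 1 library (NK cluster 10 had 71 Control and 1480 DOPAC cells), so mix and library cannot be told apart. All intervals are at the 95% level and cover counting error only. That of the difference over all cells was 4.49 to 4.52 points.

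Naive-like T cells, named from Lef1, Tcf7, S1pr1 and other naive T cell genes, had the highest share of all classes with at least 100 cells in both libraries. It was 30.1% in Control (527 cells) and 32.3% in DOPAC (135 cells), of which the large subunit gave 16.2% and 17.1%. The cells of cluster 7, a T cluster led by Klra7 and Lef1 that was not assigned to a T subset, followed with 22.1% and 23.7%. Other T cells (cluster 6) stood at 19.4% and 21.4%, and regulatory T cells at 19.01% and 17.8%. NK cells stood at 18.1% and 22.9%.
Among the dendritic cell (DC) classes with at least 100 cells in both libraries, the order was the same in each. The class cDC1 had 20.6% and 21.0%, cDC2 18.7% and 17.8%, and mature DC 16.2% and 14.6%. Monocytes and macrophages had 14.3% and 13.5%. Lymphocytes other than regulatory T cells were higher in DOPAC, and monocytes, macrophages, cDC2 and mature DC were lower.
Classes with fewer than 100 cells in a library are given as levels. B cells stood at 18.3% (644 Control cells) and 22.6% (44 DOPAC cells), and plasmacytoid DC (pDC) at 14.4% (402 cells) and 15.1% (54 cells). CD8 T cells stood at 18.3% in 77 Control cells and 25.01% in 3225 DOPAC cells, and cycling T cells at 23.2% (37 cells) and 25.1% (685 cells). In CD8 cluster 12, 9 of 11 markers of monocytes and macrophages were raised. In CD8 T cells these 11 markers summed to 4344 CPM (UMIs scaled to 1000000 per sum) in Control and 1032 in DOPAC, with 0 of them at 0. The 5 erythroid markers summed to 149639 CPM in Control CD8 T cells, with 0 of them at 0, and to 1.75 CPM in DOPAC. The part of either list in the share was not tested. CD8 cluster 12 gave 61 of the 77 Control cells, at a median of 1133 UMIs. Its 8 T markers summed to 578 CPM in Control and 2747 in DOPAC, and its erythroid markers to 232310 CPM in Control. The name CD8 T is therefore uncertain for these 61 cells. The 16 Control cells of CD8 cluster 18 had T markers at 6520 CPM and a ribosomal protein share of 21.8%. Erythroid markers were also higher in other Control classes, for example at 1732 CPM in naive-like T cells against 2.39 in DOPAC. Without CD8 cluster 12, left out after seeing the data, the difference in ribosomal protein share over T-lineage cells was 1.73 points, as with it. The few melanoma cells left in the sort had 20.9% (52 cells) and 21.7% (15 cells).
Neutrophils, whose cells were also shallow (medians of 3106.5 and 1193 UMIs), held 6.91% in 128 Control cells and 7.21% in 33 DOPAC cells. A shallow cluster carrying monocyte and macrophage markers (cluster 20) lay lower still, at 4.43% of 81 Control cells' UMIs and 5.13% of 198 DOPAC cells' UMIs. Its mitochondrial share was 6.07% and 5.84%, against 3.27% and 2.76% in monocytes and macrophages.

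**Figure D1:**
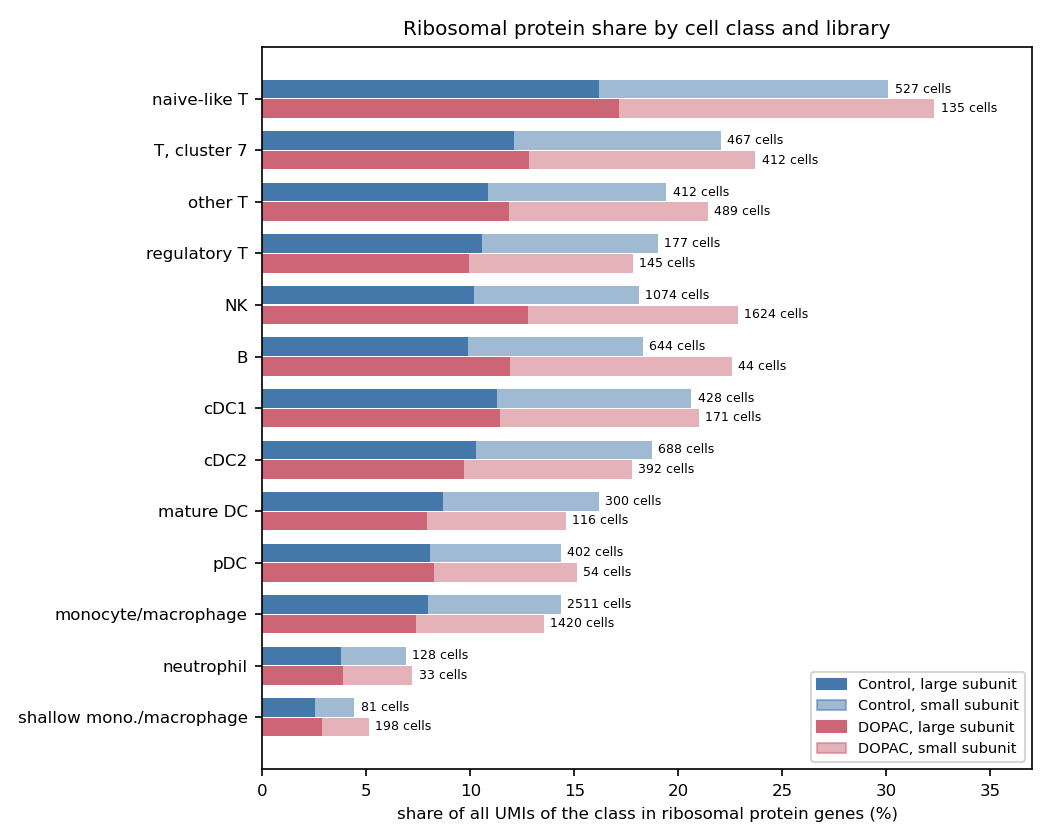
Share of all UMIs in ribosomal protein genes (x axis, percent) by cell class (y axis) for the Control and DOPAC libraries. Each bar is 1 library's summed UMIs, split into large (dark) and small (pale) subunit genes, with the cell number beside it. Naive-like T cells are highest at 30.1% and 32.3%, and neutrophils and the shallow cluster are lowest.

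Per gene, 50 of 83 measured members were at least 1.5-fold higher in naive-like than in other T cells in Control, where 12.3% of all 10004 measured genes were, and 0 were 1.5-fold lower (22.8% of all genes). In DOPAC, 33 of 83 were higher (12.6%) and 2 lower (26.3%). The median member was higher by a log2 ratio of 0.63 in Control and 0.55 in DOPAC, while the median of all genes was -0.15 and -0.14. Rpl36a, a large subunit protein, led in both libraries, with log2 ratios of 1.21 and 1.20, followed by Rps20 (1.11 and 1.07). The paralog Rps27l went the other way, at -0.51 and -0.75, the lowest of the measured members in each library.
Against regulatory T cells, 48 of 83 members were 1.5-fold higher in naive-like T cells in Control (17.1% of all genes) and 61 of 82 in DOPAC (15%), and 2 (33.6%) and 1 (35.8%) were lower. In neutrophils, 79 of 85 members were 1.5-fold lower than in monocytes and macrophages in Control (28.1% of all genes) and 74 of 83 in DOPAC (14.3%), while 2 (35.8%) and 1 (57.7%) were higher. The shallow cluster 20 gave 80 of 85 lower in Control (16.5%) and 80 of 83 in DOPAC (16.8%), with 2 (54.4%) and 1 (40.9%) higher. Nearly every member was thus lower in both. The median log2 ratio of all genes was itself 0.09 in Control and 0.87 in DOPAC for neutrophils, and 0.71 and 0.40 for the shallow cluster. The sums compared were very unequal, for example 47544 UMIs in DOPAC neutrophils and 6628153 in DOPAC monocytes and macrophages. How far the 1 count added to each sum moved these shares over all genes was not tested. cDC1 were above mature DC by a median log2 ratio of 0.38 in Control and 0.59 in DOPAC, with 21 of 83 members (27.4% of all genes) and 42 of 83 (31.1%) at least 1.5-fold higher, and 1 (25.7%) and 2 (22.2%) lower. The Control count of cDC1 is thus near the background. Against cDC2, cDC1 had 1 member higher in Control (16.1%) and 2 in DOPAC (21.2%), and 0 lower in each (20.2% and 17.9%).

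The proportion of large to small subunit genes varied much less between classes than their joint share did. The ratio of large to small subunit UMIs was 1.23 in both libraries over all kept cells (1.235 in Control, exact interval 1.233 to 1.236; 1.227 in DOPAC, 1.226 to 1.229). Among classes with at least 100 cells in both libraries it ran from 1.13 in DOPAC naive-like T cells, through 1.16 in Control naive-like T cells and Control mature DC, to 1.28 in Control NK cells. Melanoma cells had the highest ratio with 1.33 in both libraries. The ratio of naive-like T cells lay below that of other T cells (1.27 in Control, 1.25 in DOPAC) and of NK cells (1.28 and 1.26) in each library, and these intervals did not overlap. There are 52 large and 34 small subunit symbols, and the ratio of the median large to the median small member was below 1, at 0.757 in Control and 0.773 in DOPAC.

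No member took more than a few percent of the ribosomal protein UMIs. The 10 members with most UMIs in each library held 20.4% of ribosomal protein UMIs in Control and 21.3% in DOPAC, 76 and 75 of 86 held at least 0.5%, and 6 held under 0.05%. Over both libraries the most counted were Rps24 (2.33% in Control and 2.42% in DOPAC), the stalk protein Rplp1 (2.11% and 2.44%), Rpl13 (2.30% and 1.70%), Rpl23 (2.05% and 2.11%) and Rps16 (2.12% and 1.89%). Rps12, Rpl32 and Rpl27a were also among the 10 most counted. Rps24 was found in 98.9% of Control and 97.1% of DOPAC cells. Fau, which encodes a small subunit protein fused to a ubiquitin-like protein, lies outside the symbol rule. It had 367195 UMIs in Control and 214238 in DOPAC, more in all than any member but Rps24. Of the 5 genes named as pseudogenes, Rpl10-ps3 had most, with 5852 and 1469 UMIs.
Of the paralogs, Rpl36al and Rpl22l1 reached the level of the least counted core members in DOPAC, where Rpl4 had 28692 UMIs, and the other paralogs and the non-core members were less abundant. Rpl36al had 62511 Control and 30900 DOPAC UMIs, Rpl22l1 30493 and 28752, and Rps27l 30211 and 14344. Rpl7l1, which acts in ribosome assembly, had 3768 and 1336, Rps27rt 2390 and 2606, and Rps19bp1, a nucleolar protein, 2443 and 884. Rpl39l, known from the testis, had 80 and 39 UMIs, and Rpl3l, known from striated muscle, 83 and 29.

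Within the ribosomal protein UMIs, a few members differed much more between cell classes than the rest. Over the 12 classes with at least 100 Control cells, the highest share of ribosomal protein UMIs was a median of 1.45 times the lowest for the 78 members with at least 100 UMIs in each class, and 5 of the 78 exceeded 2 times. Rpl31, a large subunit protein at the peptide exit tunnel (chr1:39367842-39371911), had the widest range among them, 4.54 times. It took 2.01% of ribosomal protein UMIs in Control pDC and 1.57% in DOPAC pDC, and between 0.39% and 0.68% in each of the other classes of the plot of members by class and in the shallow cluster. Melanoma cells had 0.86% and 0.74%. The lowest Control class was NK with 0.44%. Rpl31 stood at 2881 CPM in Control pDC (12535 UMIs) and 2378 in DOPAC pDC (510 UMIs), against 799 and 977 in NK cells. Of the 50-base words of Rpl31, 75.1% also occur in a transcript of another gene, with Rpl31-ps8 sharing the most, and none of these genes is listed in the table.

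Rps27l, a paralog of Rps27 known as a target of p53, had a still wider range, with fewer UMIs behind it (at least 74 per Control class). It took 0.57% of ribosomal protein UMIs in Control mature DC and 1.12% in DOPAC mature DC, and 0.02% and 0.03% in naive-like T cells, a ratio of 27.8 times in Control and 42.0 times in DOPAC. In CPM, mature DC stood at 925 (4161 UMIs) and 1629 (1075 UMIs), cDC1 at 508 and 552, monocytes and macrophages at 360 and 357, regulatory T cells at 266 and 240, NK cells at 108 and 161, and naive-like T cells at 61.9 (226 UMIs) and 85.9 (36 UMIs). Mature DC, cDC1, and monocytes and macrophages were thus above naive-like T and NK cells in both libraries. Rps27 itself was higher in naive-like T cells (1.16% of ribosomal protein UMIs in Control, 2.14% in DOPAC) than in mature DC (0.90% and 1.93%) or cDC1 (0.63% and 1.22%).

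**Figure D2:**
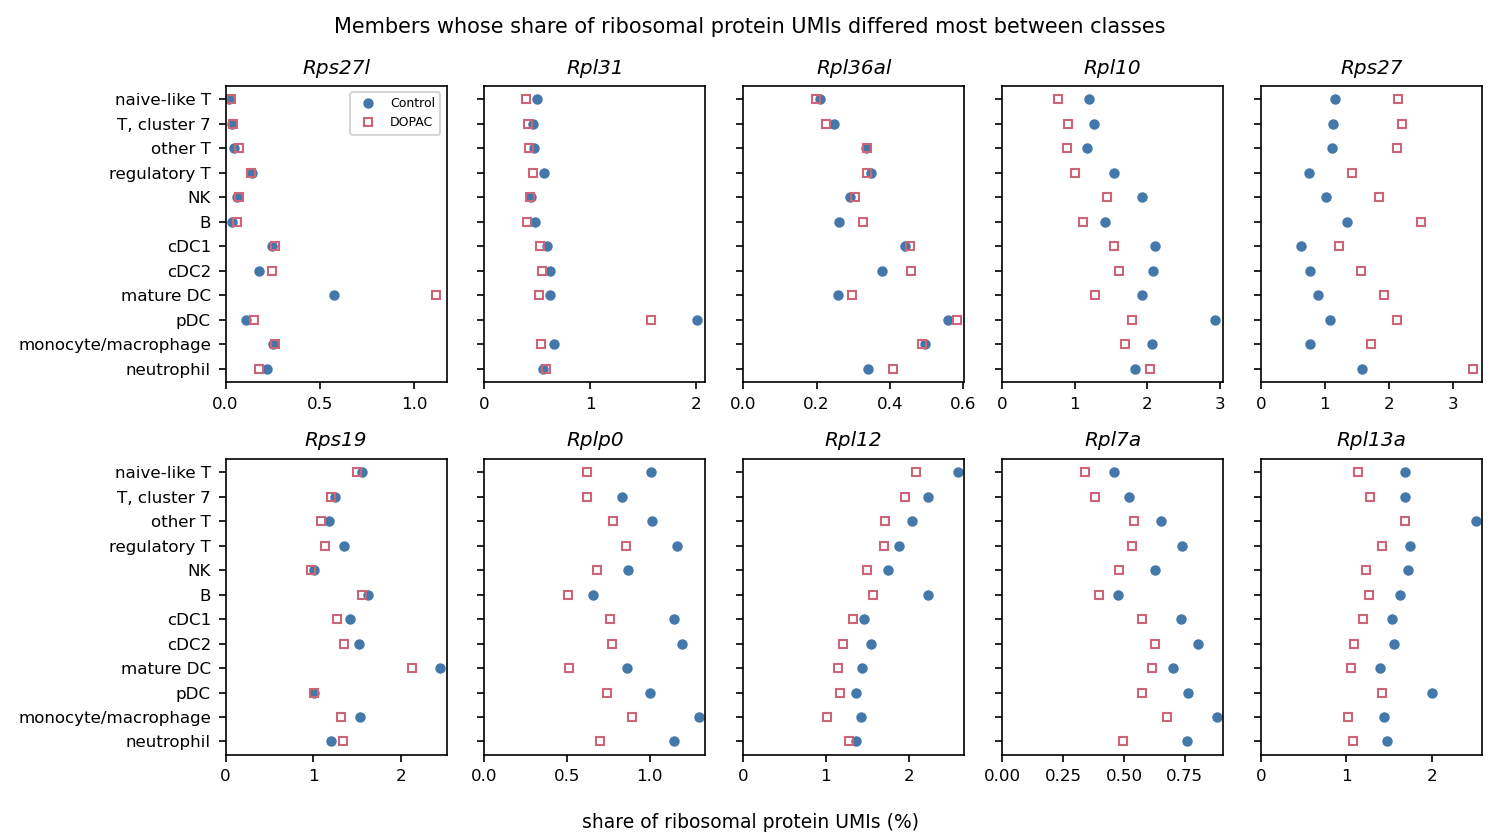
Share of ribosomal protein UMIs (x axis, percent, a separate scale per gene) in 12 cell classes (y axis) for Rps27l and the 9 members with the widest range in Control among those with at least 100 UMIs per class. Filled circles are Control and open squares DOPAC, each the sum over 1 library's cells. Rpl31 stands out in pDC at 2.01% and 1.57%, and Rps27l in mature DC at 0.57% and 1.12%.

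After Rpl31 the widest ranges were those of Rpl36al, Rpl10, Rps27 and Rps19. Rpl10, among the last proteins to join the large subunit, took 1.17% of ribosomal protein UMIs in Control other T cells and 2.94% in Control pDC, and 0.89% and 1.79% in DOPAC. Rpl36al took 0.21% in naive-like T cells and 0.56% in pDC in Control, and 0.20% and 0.58% in DOPAC. Rps19, mutated in Diamond-Blackfan anemia, took 1.00% in NK cells and 2.44% in mature DC in Control, and 0.98% and 2.13% in DOPAC.
Rpl7a was lowest in naive-like T cells (0.46% in Control, 0.34% in DOPAC) and highest in monocytes and macrophages (0.88% and 0.68%). Rplp0, the base of the stalk, was also highest in monocytes and macrophages with 1.30% and 0.89%. Rpl12, which binds beside the stalk, was highest in naive-like T cells with 2.59% and 2.09%, against 1.42% and 1.02% in monocytes and macrophages. Rpl13a was highest in other T cells with 2.51% and 1.69%, and Rpl4 was lowest in mature DC with 0.35% and 0.22%. Among the 9 classes with at least 100 cells in both libraries, the named highest or lowest class of these 5 members was the same in Control and DOPAC. The end not named could differ. Rpl13a was lowest in mature DC in Control and in monocytes and macrophages in DOPAC. Rpl4 was highest in monocytes and macrophages in Control and in cDC1 in DOPAC. Rpl10 shares 92.1% of its 50-base words with other genes, among them Rpl10-ps3, so its level is uncertain. Rpl22l1, a paralog of Rpl22, took between 0.13% (cDC1) and 0.26% (NK) in Control.

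From Control to DOPAC, the difference in ribosomal protein share ran from -1.57 points in mature DC to 4.79 points in NK cells. Naive-like T cells were higher in DOPAC by 2.20 points, other T cells by 1.99 and cluster 7 by 1.65. At a coarser clustering (resolution 0.5) the naive-like T difference turned to -0.45. Regulatory T cells differed by -1.18 points, cDC2 by -0.99, cDC1 by 0.38 and monocytes and macrophages by -0.82. Clusters of monocytes and macrophages did not differ alike: cluster 2 differed by -2.30 points (12.1% and 9.77%) and cluster 3 by 1.86 (14.3% and 16.2%). T cell markers were higher in the DOPAC myeloid classes: the 8 markers, with 0 of them at 0, summed to 58.7 CPM in Control and 263.7 in DOPAC monocytes and macrophages, 99.5 and 565 in cDC1, 104 and 253 in cDC2, and 490.1 and 646 in mature DC. Their part in the differences was not tested. In regulatory T cells, the 6 cDC2 markers summed to 400.3 CPM in Control, with 0 of them at 0, and to 3.56 CPM in DOPAC, with 4 at 0. At a finer clustering that sets these Control cells apart, the difference was -0.59.

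The NK classes of the libraries lay in different clusters. Control NK cells lay mostly in cluster 9 (996 cells, 17.7%) and DOPAC NK cells in cluster 10 (1480 cells, 22.8%). Within cluster 9 the 79 DOPAC cells had 18.7%, and within cluster 10 the 71 Control cells had 23.3%. Without cluster 9 the NK difference was 0.21 points and without cluster 10 it was 5.57, both added after seeing the data. NK cluster 23 (7 Control and 65 DOPAC cells, 21.7% and 25.6%) was kept in both. Without cluster 10, it gave 556068 DOPAC UMIs, beside 268582 from cluster 9. The Control UMIs were then mostly from cluster 9 (6353307, against 142240 from cluster 23). The 5.57 points thus set mostly cluster 23 cells against cluster 9 cells. Treatment and library cannot be told apart here.

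Deeper cells had a higher share in NK cells and in monocytes and macrophages, and the libraries differed in depth. In NK cells the Control share was 15.04% at 2000 to 5000 UMIs per cell, 17.9% at 5000 to 10000 and 21.8% at 10000 to 20000, and the DOPAC share 22.6%, 26.3% and 27.7%. In monocytes and macrophages the Control share was 8.82%, 12.04% and 14.0%, and the DOPAC share 13.1%, 14.1% and 14.9% at the same depths. DOPAC was thus higher at each of these depths in both classes.
Restricted to cells of 2000 to 5000 UMIs, the differences were 4.59 points in T-lineage cells, 7.60 in NK cells, 4.94 in DC and 4.27 in monocytes and macrophages, where the sign turned. Such cells are the shallow end of the Control library (118 of its 2511 monocytes and macrophages) and the middle of the DOPAC library (868 of 1420). With only the middle 50% of each library's own depth range in a class, a choice made after seeing the data, the differences were 0.59, 4.31, 0.02 and -0.17 points. The sign in monocytes and macrophages, and any difference in DC, therefore depended on how depth was treated, while the T and NK shares were higher in DOPAC under these choices.

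**Figure D3:**
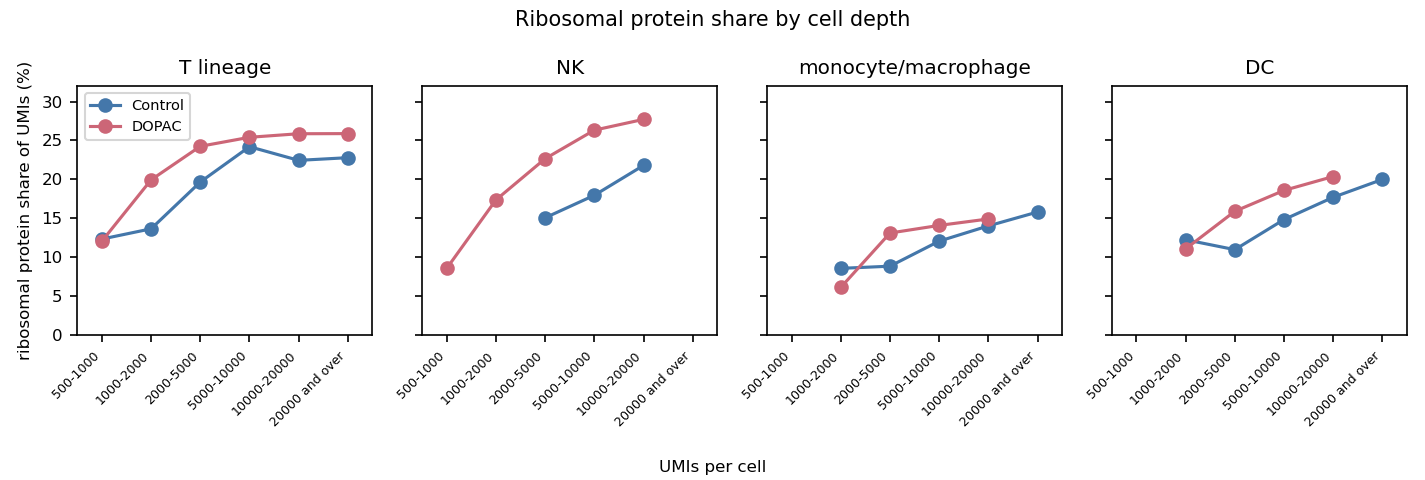
Ribosomal protein share of UMIs (y axis, percent) against UMIs per cell (x axis, bins) in T-lineage cells, NK cells, monocytes and macrophages, and DC. Each point sums the cells of 1 library in a bin of at least 20 cells. Between 2000 and 20000 UMIs the DOPAC points lie above the Control points in all 4 panels. At 1000 to 2000 UMIs the DOPAC point lies below in monocytes and macrophages and in DC, and above in T-lineage cells. At 500 to 1000 UMIs the T-lineage DOPAC point lies slightly below, at 12.04% (229 cells) against 12.31% in Control (40 cells).

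Per member, the counts at least 1.5-fold higher or lower in DOPAC were set beside those of all measured genes. In NK cells 22 of 83 members were higher (10.7% of all genes) and 0 lower (18.4%). In T-lineage cells 13 of 84 were higher (14.6%) and 3 lower (23.3%). In monocytes and macrophages 9 of 85 higher (16.1%) and 14 lower (17.2%) were counted, and in DC 11 of 84 higher (15.1%) and 4 lower (17%). In these 3 classes the counts higher are near or below the background, and in NK cells the count is above it. Over all kept cells, 19 of 85 were higher (19.1%) and 0 lower (26.1%).
By subset, other T cells had 14 of 83 members higher (9.99%) and 0 lower (17.5%), cluster 7 had 11 higher (10.7%) and 2 lower (18.3%), and naive-like T cells 11 higher (16.7%) and 4 lower (19.4%). Regulatory T cells had 8 higher (20.3%) and 14 lower (21%). Among DC, cDC1 had 11 higher (21%) and 4 lower (14.5%), cDC2 9 higher (16.2%) and 12 lower (16.6%), and mature DC 9 higher (18%) and 18 lower (16.9%). Most of these counts lie near or below the share over all genes. The median member stood at log2 ratios of 0.30 in NK cells, 0.04 in T-lineage cells, -0.16 in monocytes and macrophages and -0.04 in DC, where all genes had medians of -0.09, -0.10, -0.04 and -0.01. Median-of-ratios scaling moved the T-lineage median of all genes from -0.10 to 0.04 and that of the members to 0.17, with 21 members higher and 0 lower. In cDC1 it moved the median of all genes from 0.09 to -0.05, with 8 members higher and 13 lower. Scaling to UMIs outside ribosomal protein and mitochondrial genes gave 13 higher and 1 lower in T-lineage cells and 14 and 2 in naive-like T cells.
Rps28, at the messenger RNA exit of the small subunit, stood at 937 CPM in Control and 2478 in DOPAC in NK cells (log2 ratio 1.40) and at 888 and 1790 in monocytes and macrophages (1.01), and Rps29 at 1975 and 4803 (1.28) and at 2027 and 4050 (1.00). Rps27 stood at 1841 and 4241 CPM (1.20) in NK cells and at 1097 and 2335 (1.09) in monocytes and macrophages. These small subunit members were among the 5 highest in both classes. Rpl39 (1.13) and Rps27rt (1.47) completed the 5 highest in NK cells, and Rps27rt (1.24) and Rpl3l (1.14, 39 and 15 UMIs) those in monocytes and macrophages. In T-lineage cells the 5 highest were Rps27l (1.24), Rpl41 (1.05), Rps26 (1.02), Rps28 (1.01) and Rpl39 (0.97).
The lowest in monocytes and macrophages were Rpl4 (-1.02), Rpl21 (-0.81), Rps19bp1 (-0.79), Rpl39l (-0.78, 37 and 3 UMIs) and Rpl14 (-0.78). Rpl4 stood at 892 CPM in Control and 441 in DOPAC there. In T-lineage cells they were Rpl21 (-0.66), Rpl39l (-0.63), Rpl5 (-0.60), Rpl19 (-0.55) and Rpl8 (-0.50). In NK cells they were Rps19bp1 (-0.45), Rpl21 (-0.33), Rpl5 (-0.31), Rpl4 (-0.27) and Rps9 (-0.24). The T-lineage value of Rps27l joined subsets of different level: in other T cells it was 0.75, in naive-like T cells 0.50 and in regulatory T cells -0.14. CD8 T cells, with 77 Control and 3225 DOPAC cells, had Rps27l at 328 CPM in both libraries, beside the erythroid and monocyte and macrophage markers given above for the Control cells.

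Within the ribosomal protein UMIs, many members differed between the libraries in the same direction in every class compared. Of 83 members measured in the 9 classes with at least 100 cells in both libraries, 27 took a higher share in DOPAC in all 9 and 39 a lower share in all 9. Of 7641 genes measured in all 9 and set against the same ribosomal protein UMIs, 6.45% were higher and 11.4% lower in all 9. In CPM, 21 members were higher (10.6%) and 22 lower (11.9%) in all 9. The classes come from the same 2 libraries and are no replicates of each other. Members with short coding sequences were mostly higher and those with long ones mostly lower.
Of 19 members under 350 coding bases, 17 were higher in DOPAC in all 9 classes and 0 lower in all 9. The other two were Rps27l (higher in 8) and Rpl36al (higher in 5). Of 35 members of 350 to under 550 bases, 10 were higher and 13 lower in all 9, and of 29 members of 550 bases or more, 0 were higher and 26 lower. Of the 86 members, Rpl3l, Rpl10l and Rpl39l had under 1000 UMIs and were left out.
The median over the 9 classes of the log2 ratio of shares was 1.06 for Rps28 (207 coding bases), 0.98 for Rps29 (168), 0.96 for Rps27 (252), 0.85 for Rpl39 (153), 0.76 for Rpl38 (210) and 0.66 for Rpl41 (75), the shortest. At the long end it was -0.72 for Rpl4 (1257 bases), -0.59 for Rpl3 (1209), -0.54 for Rplp0 (951) and -0.72 for Rpl5 (891). Exceptions were Rpl21 (480 bases, -0.70), Rpl23a (468, -0.55), Rpl29 (480, -0.50) and Rpl31 (375, -0.19) on the lower side and Rpl35 (369, 0.59) on the higher side.

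**Figure D4:**
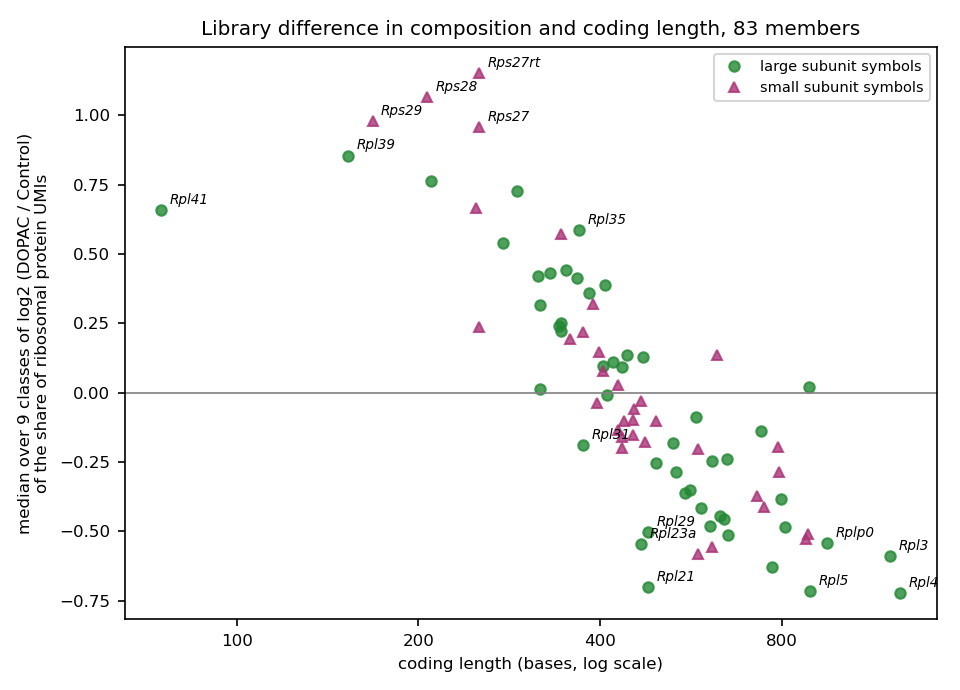
Median over 9 cell classes of the log2 ratio, DOPAC over Control, of each member's share of ribosomal protein UMIs (y axis) against its coding length (x axis, bases, log scale) for the 83 members with at least 1000 UMIs. Circles are large and triangles small subunit symbols. Rps27rt is highest with 1.15, and Rpl4 is lowest with -0.72.

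Across these 83 members, Pearson's r between log2 coding length and the log2 ratio of CPM lay between -0.76 (mature DC) and -0.85 (cDC2) over the 9 classes, and Spearman's rho between -0.83 and -0.89. These are descriptions across genes that share libraries and depth, and genes are not independent replicates. With annotated transcript length in place of coding length, r lay nearer to 0 in each of the 9 classes, from -0.60 in cDC2 to -0.53 in regulatory T cells. Within NK clusters 9 and 10, r with coding length was -0.78 and -0.74. For genes outside the rule, r lay between 0.09 and 0.24 across 4504 to 9850 other genes with at least 100 UMIs. Among other genes with at least 300 CPM in both libraries it lay between -0.18 (cDC2, 341 genes) and 0.22 (cluster 7, 330 genes). Even so, these abundant other genes had a higher median log2 ratio under 350 coding bases than from 550 bases on in each of the 9 classes, for example 0.41 and -0.06 in cDC2 and 0.23 and 0.04 in monocytes and macrophages. Within the NK clusters these medians were 0.02 and -0.02 in cluster 9 and 0.08 and 0.14 in cluster 10. The short groups of the 9 classes were small, from 14 genes (naive-like T) to 48 (monocytes and macrophages). Over all other genes with at least 100 UMIs the order depended on the lengths compared. In each of the 9 classes the median under 350 bases lay above those of 350 to under 550 and 550 to under 1000 bases. In naive-like T cells these were -0.06, -0.35 and -0.23, and in cDC1 0.14, -0.10 and -0.12. From 2000 bases on, longer than any member (at most 1257), the order was not uniform. The medians under 350 bases and from 2000 bases on were -0.06 and 0.10 in naive-like T cells and -0.10 and 0.09 in cluster 7. Of the 9 classes, only other T cells (0.10 and 0.05) and cDC2 (0.11 and 0.07) were higher under 350 bases than from 2000 bases on. In monocytes and macrophages of 2000 to 5000 UMIs, r was -0.67 for the members and -0.35 for 4328 other genes. At that depth r of other genes was -0.28 in regulatory T cells and -0.01 in other T cells. It was 0.09 in NK and in naive-like T cells and 0.15 in cluster 7.
Between classes of the same library r lay nearer to 0 than between the libraries. It was -0.02 in Control and -0.14 in DOPAC for naive-like over other T cells and 0.06 and -0.10 for naive-like T over NK cells. For NK cells over monocytes and macrophages it was -0.07 and -0.01, and for cDC1 over cDC2 0.01 and 0.20. Spearman's rho reached -0.23 for naive-like over other T cells in DOPAC. The largest values were those of cDC1 over mature DC, with r of 0.54 and 0.41.

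As a share of all ribosomal protein UMIs, the 19 short members took 17.4% in Control and 25.4% in DOPAC, and the 29 long members 36.8% and 28.7%. In single classes the short share lay between 16.1% (cDC2) and 18.6% (cluster 7) in Control and between 24.8% (cDC1) and 27.9% (mature DC) in DOPAC. No DOPAC class overlapped the Control classes. The libraries also lay apart at each depth with at least 20 cells in both. In NK cells the short share was 18.0%, 18.1% and 17.5% at 2000 to 5000, 5000 to 10000 and 10000 to 20000 UMIs per cell in Control and 26.5%, 25.6% and 24.9% in DOPAC. In monocytes and macrophages it was 19.4%, 17.5% and 17.1% in Control and 26.0%, 26.4% and 26.6% in DOPAC.
The class differences in ribosomal protein share were also divided by coding length. In monocytes and macrophages the short members were higher in DOPAC by 1.04 points of all UMIs and the long ones differed by -1.44. In other T cells the values were 2.17 and -1.01. The 35 members of middle length differed by -0.42 and 0.82 points in these classes. In NK cells short members were higher by 2.76 points and middle ones by 2.07, and long ones differed by -0.04. The NK difference thus lay in the short and middle members. Outside the symbol rule, Fau stood at 3582 CPM in Control and 4455 in DOPAC monocytes and macrophages (log2 ratio 0.31). Treatment and library cannot be told apart for this pattern.

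**Figure D5:**
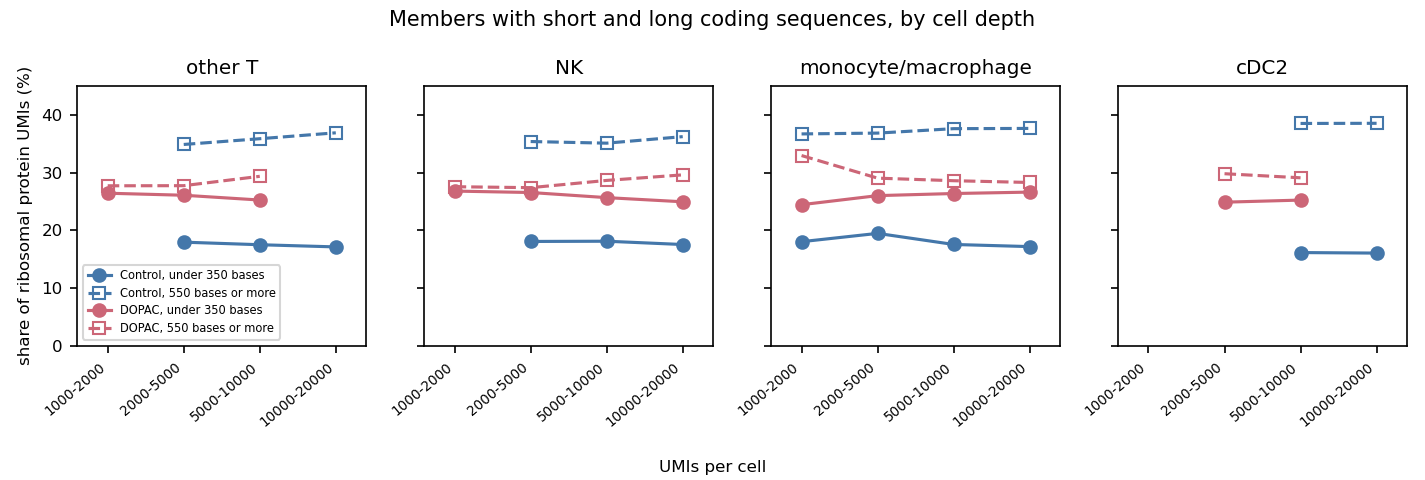
Share of ribosomal protein UMIs (y axis, percent) held by members with under 350 coding bases (filled circles, solid) and with 550 or more (open squares, dashed), by UMIs per cell (x axis, bins of at least 20 cells), in other T cells, NK cells, monocytes and macrophages, and cDC2. The libraries stay apart at every depth shown, with NK short members at 17.5% to 18.1% in Control and 24.9% to 26.8% in DOPAC.

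Other genes of translation were read from lists. Over all measured genes, 17.2% were 1.5-fold lower and 16.1% higher in DOPAC monocytes and macrophages, 23.3% and 14.6% in T-lineage cells and 18.4% and 10.7% in NK cells. Of 10 elongation genes, 6 were at least 1.5-fold lower in DOPAC monocytes and macrophages and 0 higher, with a median log2 ratio of -0.66, and the medians in T-lineage cells, NK cells and DC were -0.40, -0.36 and -0.56. Eef1a1, which brings transfer RNA to the ribosome, stood at -0.63 in monocytes and macrophages, Eif5a, which aids peptide bond formation, at -0.82, and Tpt1 at -0.08. Of 34 ribosome biogenesis genes, 19 were 1.5-fold lower there and 0 higher (median -0.65), against 5 lower and 1 higher in T-lineage cells (median -0.10). The nucleolar genes Nhp2 and Fbl stood at -1.32 and -1.12, and Npm1 and Ncl at -0.05 and -0.28.
Of 29 initiation genes, 12 were lower and 0 higher in monocytes and macrophages (median -0.21), and 2 lower and 1 higher in T-lineage cells (-0.02). Of 18 genes of mTOR and ribosomal protein RNA regulation, 0 passed in monocytes and macrophages (-0.18), and 4 were lower and 1 higher in T-lineage cells (-0.34), close to or below the shares over all genes. Of 78 mitochondrial ribosomal protein genes, 32 were lower and 0 higher in monocytes and macrophages (-0.50), 17 lower in NK cells (-0.27), and 2 lower and 7 higher in T-lineage cells (0.04). Rack1, a scaffold on the small subunit with no ribosomal symbol, stood at 1715 CPM in Control and 1018 in DOPAC monocytes and macrophages (-0.75).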

How the data were processed

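Single-cell RNA libraries of sorted CD45+ tumor cells, 1 Control and 1 DOPAC, were read from the deposited matrices of UMI counts per gene and cell, which the authors deposited. Cell Ranger 7.0.1 wrote them, going by the file headers, and the genome was GRCm38, per the submitters' processing notes. Other settings were not given in the sources used here. The counts are whole numbers, not normalized. Cells with at least 500 UMIs, 200 genes and at most 10% mitochondrial UMIs were kept. Scrublet removed 365 Control cells. It marked 0 DOPAC cells by its own threshold, so the 815 highest scores (8.07%) were removed there. Cells were clustered with scanpy 1.11.5 (2000 variable genes without ribosomal protein, mitochondrial and receptor segment genes, 30 components, 15 neighbours, resolution 1.0), with no integration of the libraries, and clusters were named from marker lists. UMIs were summed per class and library. Log2 ratios add 1 count to each sum and need 20 UMIs over both, and a call is 1.5-fold. With 1 library per group no test was run, and exact binomial intervals (95%) cover counting error only. The log2 ratio was tested on simulated data. All 86 gene IDs matched GENCODE M21, from which coding lengths of the shortest principal transcript were taken. Promoter windows are from RefSeq.

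Genes were named by a rule: the 10 members with most UMIs, all paralogs and non-core members, the 5 highest and 5 lowest log2 ratios in T, NK and monocyte and macrophage cells, the 10 members with the widest range over Control classes, Fau, Rack1, and abundant genes of the other lists. Rpl36a, Rps20 and the members named by coding length were chosen after their values were seen, as were the coding length classes. The members and lists were chosen with earlier results of these data known. Some genes that the rule names, and 1 other definition of the gene list, are not reported here.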

Additional observations from a re-analysis of the deposited data

Results flagged for a closer look

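The ribosomal protein share was higher in the DOPAC library in T-lineage cells (1.73 percentage points) and lower in 4 classes. The differences were -0.82 points in monocytes and macrophages, -0.99 in cDC2, -1.57 in mature DC and -1.18 in regulatory T cells. These opposite signs rest on 1 library per group and the difference between classes was not tested. Regulatory T cells are themselves part of the T lineage. The subset mix of the T lineage also differed: naive-like T cells were 527 of 1771 Control and 135 of 5213 DOPAC cells, and CD8 T cells 77 and 3225. The T-lineage value is therefore not a difference between like cells. In cells of 2000 to 5000 UMIs the sign turned in monocytes and macrophages and in regulatory T cells. For regulatory T cells this rests on 33 Control and 83 DOPAC cells. In cDC2 it turned at 5000 to 10000 UMIs (15.9% in Control, 18.4% in DOPAC). With the middle 50% of each library's own depth it did not turn, at -0.17, -0.64 and -0.03 points in these classes.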

How the results depend on the processing

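Values are differences in ribosomal protein share in percentage points, DOPAC minus Control, unless named otherwise. The main values were 4.51 for all kept cells, 1.73 for T-lineage cells, 4.79 for NK cells, -0.82 for monocytes and macrophages and 0.05 for DC. With doublets kept they were 4.38 (all cells), 1.18 (T), -0.66 (monocytes and macrophages) and 0.37 (DC). With a mitochondrial limit of 20% they were 4.43, 1.67, 4.67 (NK), -0.69 and 0.14 (DC). In cells of 2000 to 5000 UMIs they were 5.06, 4.59, 7.60 and 4.94 (DC). They turned to 4.27 in monocytes and macrophages and 3.66 in regulatory T cells (33 Control and 83 DOPAC cells). The large to small ratio was then 1.22 in Control and 1.24 in DOPAC, and median member log2 ratios were 0.25 (T), 0.54 (NK), 0.54 (monocytes and macrophages, turned) and 0.41 (DC, turned). Rpl14 turned to 0.0221 in monocytes and macrophages. Without mitochondrial UMIs in the total the differences were 4.76, 1.92, 5.10 and -0.92. As means over cells they were 3.41, 1.02, 3.95, -0.73 and -0.15 (DC, turned). At resolution 2.0 they were 1.32 (T), -0.70 (monocytes and macrophages) and 0.17 (DC). At resolution 0.5 they were -1.02 (monocytes and macrophages), -0.16 (DC, turned) and -0.45 (naive-like T, turned). A gate on marker UMIs gave 1.48 (T) and 4.86 (NK). The median member gave large to small ratios of 0.76 and 0.77. Median-of-ratios scaling gave a median log2 ratio of 0.17 (T), and scaling to UMIs outside ribosomal protein and mitochondrial genes 0.40 (NK). Alternatives chosen after seeing the data gave 0.21 (NK without cluster 9), 5.57 (NK without cluster 10), -0.52 (monocytes and macrophages without cluster 4), -0.0754 (all cells, DOPAC clusters weighted as in Control, turned) and 2.01 (all cells, Control clusters weighted as in DOPAC). The middle 50% of depth gave 4.26 (all), 0.59 (T), 4.31 (NK) and -0.17 (monocytes and macrophages). The cause of these shifts was not tested. Because UMI sums are large, their counting intervals are narrow and most shifts exceed them.

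No paired analysis was possible because each group is 1 library and the labels share only the replicate number 1. The DC subsets had too few Control cells at 2000 to 5000 UMIs, and the gate gives no T or DC subsets, so these were not run. Members with under 100 UMIs in a class, such as Rps27l in neutrophils, are limited by depth.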
